A study of Mus musculus with 6 samples.

Results

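Mitochondrial protein import and folding was examined through 38 of the 54532 genes in the deposited table. The members are the genes whose symbol begins with Timm or Tomm followed by a digit, together with Hspd1, Hspe1, Hspa9, Grpel1, Grpel2, Pam16, Dnajc19, Pmpca, Pmpcb, Lonp1, Clpp and Clpx, without pseudogenes. They comprise 37 protein-coding genes and Tomm6os, a transcript on the strand opposite to Tomm6. RNA was sequenced from primary hepatocytes of mice on a C57BL/6 background, aged 32 to 34 weeks and fed a high-fat diet during 26 of them. The control group, XCON, carries floxed Xbp1 alleles (Xbp1FL/FL). The other group, XCKO, lacks Xbp1 in hepatocytes (Xbp1ΔHep), and each group has 3 libraries. The diet is shared by both groups, so the comparison shows the genotype on that diet and nothing of the diet itself. The labels name neither the Cre line nor the animal behind each library, so the p-values below rest on differences among libraries, which may be partly technical. The product of Xbp1 is a transcription factor that the endoplasmic reticulum calls on when unfolded proteins build up there.

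Most mitochondrial proteins are made in the cytosol and enter through the TOM complex of the outer membrane. Small TIM chaperones carry hydrophobic precursors across the intermembrane space, the TIM22 complex inserts carriers into the inner membrane, and the TIM23 channel passes precursors with a presequence to the matrix. There a motor built on the chaperone Hspa9 pulls the chain in, the processing peptidase removes the presequence, the Hspd1 and Hspe1 chaperonin folds the protein, and the proteases Lonp1 and ClpXP degrade what is damaged or surplus. Hepatocytes are rich in mitochondria and hold many matrix enzymes, among them those of the urea cycle and of fatty acid oxidation.

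The libraries held 23919355 to 27240079 counted reads. Xbp1 stood at 171, 294 and 319 CPM (reads scaled to a common library size by TMM) in XCON 1, 2 and 3 and at 59.0, 39.3 and 67.3 in XCKO 1, 2 and 3, log2 −2.24 ± 0.29 (SE), adjusted p = 0.0084. It was thus lower in each library labelled XCKO than in each control. Genes of the mitochondrial genome took 22.8% of the reads in XCON 1 and 8.99% to 13.1% in the other libraries. Hepatocyte markers were abundant in both groups, with summed levels of 73764 to 100350 CPM in XCON and 99266 to 132732 CPM in XCKO, and 0 of 10 passed the test. Markers of other liver cells were present at lower levels. Macrophage markers summed to 1068 to 2055 CPM in XCON and 365 to 986 CPM in XCKO, with 1 of 10 lower. Stellate cell markers summed to 287 to 591 CPM and 117 to 294 CPM, with 2 of 8 lower, and cholangiocyte markers to 251 to 582 CPM and 82.4 to 162 CPM, with 0 of 5 passing. Endothelial markers summed to 473 to 505 CPM in XCON and 367 to 717 CPM in XCKO, lymphocyte markers to 3.01 to 19.3 CPM and 2.13 to 6.31 CPM, neutrophil markers to 2.91 to 15.6 CPM and 2.71 to 62.0 CPM and erythroid markers to 42.1 to 69.9 CPM and 77.3 to 916 CPM, with 0 passing in each of these lists. At an unadjusted edgeR p under 0.05, 3 hepatocyte, 1 endothelial and 5 erythroid markers were higher. At that level 6 stellate, 5 cholangiocyte, 4 macrophage and 1 lymphocyte markers were lower, and the share of all tested genes was not counted. DESeq2 called 3 hepatocyte and 5 erythroid markers higher and 4 cholangiocyte, 4 macrophage and 5 stellate markers lower. Over all 14873 tested genes it called 1415 higher and 1238 lower. No marker in these lists was listed at 0 in all libraries. The part of these cells in the results below was not tested, and in such bulk samples fewer cells of a type and less RNA per cell cannot be told apart.

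Of the 38 members, 35 passed the filter on low counts and were tested, and 12 of them (34.3%) rose in XCKO while 0 fell. Over all 14873 tested genes, 5.21% rose and 4.05% fell (edgeR quasi-likelihood test, Benjamini-Hochberg adjusted p under 0.05, as for all adjusted p-values here). The median log2 fold change, XCKO minus XCON, was 0.56 over the tested members and −0.05 over all tested genes. At an unadjusted p under 0.05, 25 members were higher and 1 lower, and the share of all tested genes at that level was not counted. DESeq2 called 20 members higher and 0 lower, where 9.51% of all tested genes were higher. With limma-voom the counts were 14 and 0, where 5.49% of all tested genes were higher. Among the 23 members that did not pass, 19 had a positive and 4 a negative estimate. In all, 31 of the 35 tested members had a positive estimate, as had 6910 of all 14873 tested genes. An adjusted p between 0.05 and 0.1 was found for 11 of the 23, and the share of all tested genes in that range was not counted. The 3 XCKO values lay above the 3 XCON values for 27 members, against 17.6% of all tested genes, and below them for 1 member, Tomm34, against 18.1%. In the authors' deposited table of the same contrast, 19 of the 38 members are higher and 0 lower, where 5.51% and 4.66% of its genes are. Those 19 hold the 12 members above together with Timm22, Timm50, Tomm5, Tomm70a, Grpel1, Hspa9 and Pmpcb.

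The number that passed fell when any 1 library was left out, among the members and over all tested genes. The number of members was 6 without XCON 1, 5 without XCON 2, 5 without XCON 3, 8 without XCKO 1, 9 without XCKO 2 and 3 without XCKO 3. Of all tested genes, 1.88%, 2.51%, 2.33%, 2.63%, 3.38% and 1.15% were higher in these fits, in the same order, against 5.21% with all libraries. Tomm7, Timm13 and Timm23 passed in each of these 6 fits. Scaling by library totals instead of TMM moved the median of all tested genes by −0.26 and left 5 members higher (Timm10, Timm13, Timm23, Timm8a1 and Tomm7) and 1 lower (Tomm34). The median of the members was then 0.29 and that of all genes −0.31, and 2.2% of all tested genes were higher.

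**Figure D1:**
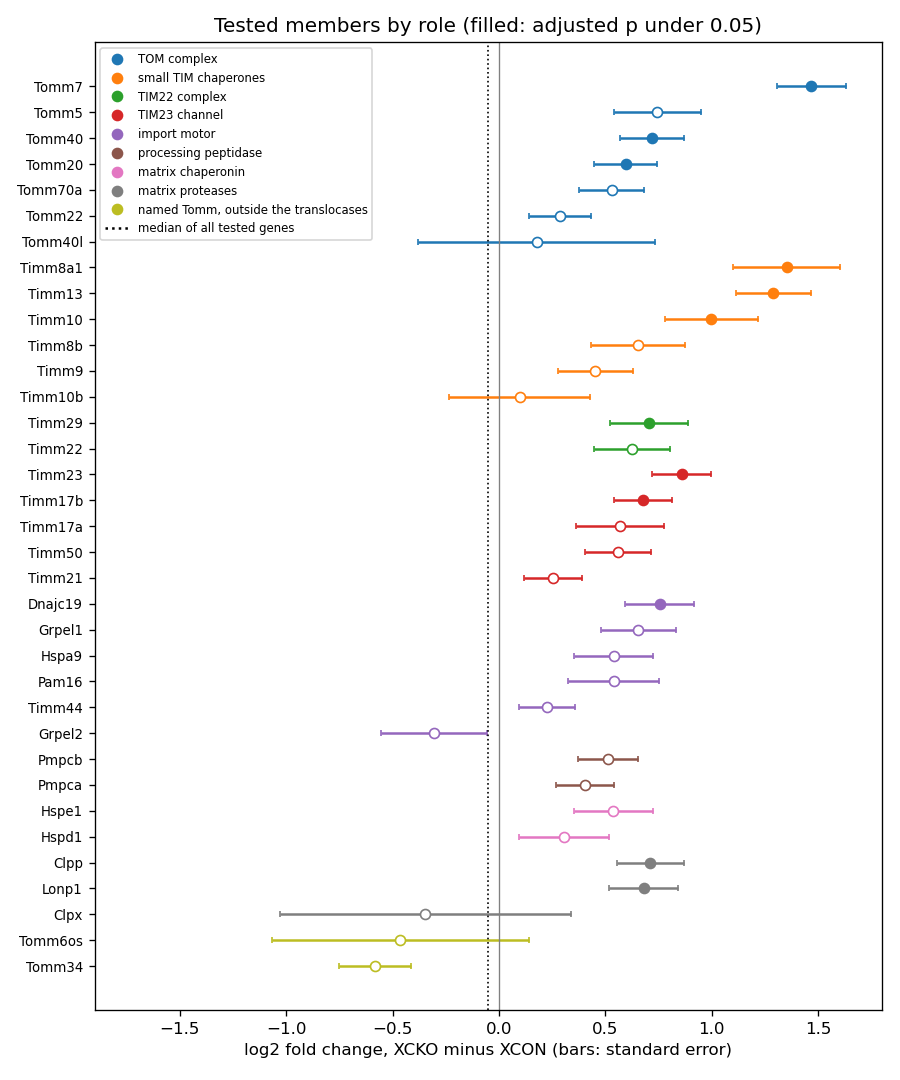
Log2 fold change (XCKO minus XCON) of each of the 35 tested members, grouped by role, with standard errors as bars and filled points for an adjusted p under 0.05. The 12 filled points lie between 0.60 (Tomm20) and 1.47 (Tomm7), and the dotted line marks the median of all tested genes, −0.05.

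**Figure D2:**
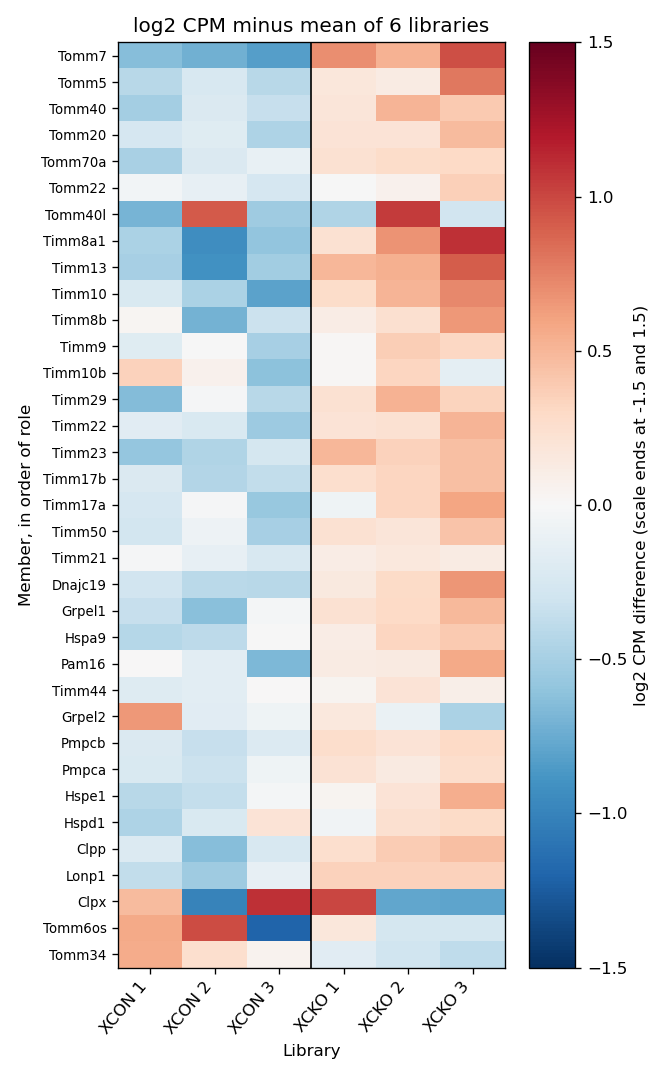
Level of each tested member in each library as log2 CPM minus the mean over the 6 libraries, with members in order of role and a line between XCON and XCKO. Most rows are blue in the 3 XCON libraries and red in the 3 XCKO libraries, while Clpx and Tomm40l vary within both groups.

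Promoters of 5 members are shown before their values. RefSeq promoters (GRCm38.p6, 250 bases before to 50 after the annotated start, on the gene's strand) were found for 33 of the 38 members. No entry was matched for Tomm7, Tomm40l, Hspa9, Grpel2 and Timm21. Of the 5 below, 4 belong to the members that rose with the largest log2 fold changes among those with an entry. The other was added from the chaperonin gene Hspe1, which did not pass the test, and holds a heat shock element. Capitals mark matches on either strand to CCGGAAG (the core bound by ETS factors such as GABPA), GCGCATGC (the core bound by the factor Nrf1), GAANNTTC (a heat shock element) and CCACGT (within the element bound by XBP1).
Timm8a1, chrX:134541621-134541920, minus strand: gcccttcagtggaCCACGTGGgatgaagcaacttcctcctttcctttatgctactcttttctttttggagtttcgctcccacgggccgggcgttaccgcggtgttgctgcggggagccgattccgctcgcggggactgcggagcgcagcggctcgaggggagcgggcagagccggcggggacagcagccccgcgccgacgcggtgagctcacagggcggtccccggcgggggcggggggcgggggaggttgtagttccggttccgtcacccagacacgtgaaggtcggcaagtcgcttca
Timm13, chr10:80900920-80901219, minus strand: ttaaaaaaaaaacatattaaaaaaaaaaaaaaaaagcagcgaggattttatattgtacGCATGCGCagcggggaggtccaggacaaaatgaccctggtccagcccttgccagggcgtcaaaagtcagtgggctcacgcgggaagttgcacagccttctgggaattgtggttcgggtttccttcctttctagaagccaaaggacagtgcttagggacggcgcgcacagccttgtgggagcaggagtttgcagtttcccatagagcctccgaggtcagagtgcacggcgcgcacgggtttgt
Timm10, chr2:84826771-84827070, plus strand: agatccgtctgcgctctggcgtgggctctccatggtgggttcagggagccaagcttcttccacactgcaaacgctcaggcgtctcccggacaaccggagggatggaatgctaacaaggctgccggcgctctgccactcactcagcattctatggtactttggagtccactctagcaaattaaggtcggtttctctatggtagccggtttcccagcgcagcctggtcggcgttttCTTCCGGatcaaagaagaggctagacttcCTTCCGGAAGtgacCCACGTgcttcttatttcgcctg
Timm23, chr14:32201842-32202141, minus strand: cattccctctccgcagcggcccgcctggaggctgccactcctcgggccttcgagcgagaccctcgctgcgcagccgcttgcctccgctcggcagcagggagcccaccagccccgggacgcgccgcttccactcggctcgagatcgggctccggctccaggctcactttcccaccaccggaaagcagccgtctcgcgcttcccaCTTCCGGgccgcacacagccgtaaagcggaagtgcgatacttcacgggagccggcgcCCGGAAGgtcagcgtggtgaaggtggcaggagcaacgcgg
Hspe1, chr1:55087898-55088197, plus strand: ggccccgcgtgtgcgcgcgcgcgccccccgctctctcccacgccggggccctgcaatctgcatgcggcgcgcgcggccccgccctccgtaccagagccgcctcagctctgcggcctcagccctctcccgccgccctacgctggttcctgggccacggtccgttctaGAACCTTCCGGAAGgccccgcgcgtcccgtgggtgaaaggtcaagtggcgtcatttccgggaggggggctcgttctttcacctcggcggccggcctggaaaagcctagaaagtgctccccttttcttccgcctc
In the Hspe1 promoter, matches to GAANNTTC and to CCGGAAG on both strands overlap in a single run of capitals, and in the Timm8a1 promoter both strands of CCACGT overlap.

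Among the 30 tested members with a promoter entry, CCGGAAG stood in 14 (46.7%), against 19% of the promoters of 10882 tested genes. It was in 4 of the 11 members that rose (Clpp, Timm10, Timm23 and Timm29) and in 10 of the 19 that did not pass. CCACGT was in 4 of the 30 (13.3%), against 12.9% of tested genes, and its shorter form CCACG in 53.3% against 50.4%. GCGCATGC was in 10% (Timm13, Clpx and Grpel1) against 5.61%. GAANNTTC was in 3 members, Hspd1, Hspe1 and Timm9, against 7.16% of tested genes. TGATGNAA, of the element bound by CHOP and ATF4, was in 0 of 30 against 2.86%, and AAGGTCA, bound by ERR receptors, in 5 (16.7%) against 4.38%. The promoters of Hspd1 (chr1:55087883-55088182) and Hspe1 (chr1:55087898-55088197) overlap on opposite strands. Their matches to CCGGAAG, GAANNTTC and AAGGTCA are thus the same letters counted for both members in the shares above. These are matches of letters, and binding at them was not measured here.

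In the TOM complex, 3 of the 7 tested members rose, 0 fell, and the median log2 fold change was 0.60. Tomm7 (chr5:23838944-23844161), a small subunit that modulates assembly of the complex, stood at 8.65, 8.17 and 7.63 CPM in XCON 1, 2 and 3 and at 22.0, 19.4 and 26.3 CPM in XCKO 1, 2 and 3. Its groups did not overlap, with means of 8.15 ± 0.508 and 22.6 ± 3.52 CPM (SD, n = 3 each), a 2.77-fold difference (log2 1.47 ± 0.16 (SE), adjusted p = 0.0059). No gene of the table overlaps it. Tomm40 (chr7:19701313-19715438), the pore itself, was at 18.6, 22.9 and 20.8 CPM in XCON and 30.1, 37.8 and 34.9 CPM in XCKO (log2 0.72 ± 0.15 (SE), adjusted p = 0.025). Tomm20 (chr8:126930667-126945844), the receptor for presequences, was at 36.1, 37.9 and 31.2 CPM in XCON and 49.5, 49.7 and 59.7 CPM in XCKO (log2 0.60 ± 0.15 (SE), adjusted p = 0.041). For both genes each XCKO library lay above each XCON library. Tomm40 did not pass without XCON 1, XCON 3 or XCKO 3, and Tomm20 passed in none of the 6 fits that left out a library, where its adjusted p reached 0.10.

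The other TOM subunits did not pass. Tomm70a, the receptor for carrier precursors and Hsp90-bound clients, had 67.5, 81.1 and 87.4 CPM in XCON and 111, 114 and 116 CPM in XCKO, groups that did not overlap (log2 0.53 ± 0.15 (SE), adjusted p = 0.061). Its gene overlaps Nit2, which was at 57.4, 51.4 and 55.5 CPM and 77.8, 85.9 and 88.2 CPM, and the sources used here do not give whether reads were counted by strand. Tomm22, the central receptor, was at 23.4, 22.2 and 20.3 CPM in XCON and 24.1, 25.4 and 30.9 CPM in XCKO (log2 0.29 ± 0.15 (SE), adjusted p = 0.23), a narrow gap between groups. Tomm5, another small subunit, had a log2 fold change of 0.74 ± 0.20 (SE) (adjusted p = 0.054). Tomm6 had 2, 2 and 3 reads in the XCON libraries and 4, 0 and 2 in the XCKO libraries and Tomm20l 0, 5 and 0 and 0, 0 and 0. The filter on low counts left out both. A count of 0 allows up to 3 reads, or 0.101 to 0.130 CPM in these libraries, covering counting error alone. The Tomm6 gene overlaps 3 others (Usp49, Tomm6os and Gm21981) and Tomm20l overlaps Timm9, and the part of these overlaps in the counts was not tested.

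Of the 6 small TIM chaperones tested, 3 rose and 0 fell, and the median log2 fold change was 0.82. They ferry hydrophobic precursors across the intermembrane space. Timm8a1 (chrX:134537256-134541865), which pairs with Timm13 and whose human counterpart is mutated in deafness-dystonia syndrome, was at 5.57, 4.06 and 5.13 CPM in XCON and 9.02, 12.3 and 16.5 CPM in XCKO (2.55-fold, log2 1.35 ± 0.25 (SE), adjusted p = 0.019). Its partner Timm13 (chr10:80899450-80900969) was at 20.0, 15.0 and 19.7 CPM in XCON and 39.9, 40.8 and 53.0 CPM in XCKO (2.44-fold, log2 1.29 ± 0.18 (SE), adjusted p = 0.0089). Both partners were higher in each XCKO library, and XCKO 3 was the highest of the 6 for each. Timm10 (chr2:84826997-84830213), which forms a hexamer with Timm9, was at 6.34, 5.35 and 4.26 CPM and 8.98, 10.6 and 12.3 CPM (log2 1.00 ± 0.22 (SE), adjusted p = 0.029). Timm8a1 and Timm10 did not pass without XCON 2, XCON 3 or XCKO 3.

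Their relatives Timm8b, Timm9 and Timm10b did not pass, and they differ in where their libraries fell. Timm8b, with 17.2, 10.3 and 13.4 CPM in XCON and 18.1, 19.9 and 26.3 CPM in XCKO, had groups that did not overlap (log2 0.65 ± 0.22 (SE), adjusted p = 0.09). Timm9 was at 14.0, 15.7 and 11.2 CPM and 15.9, 20.4 and 19.6 CPM (log2 0.45, adjusted p = 0.13). Timm10b was low and overlapping at 3.34, 2.75 and 1.72 CPM and 2.67, 3.30 and 2.38 CPM (log2 0.10 ± 0.33 (SE), adjusted p = 0.87), and its gene overlaps Arfip2. Timm8a2 had 2 reads in XCON 2 and 0 in the other libraries and was left out by the same filter.

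Pairs within this class were compared as ratios within each library, which no scaling between libraries changes. The log2 ratio of Timm8a1 to Timm8b was −1.45 ± 0.15 in XCON and −0.79 ± 0.19 in XCKO (SD, n = 3 each), and that of Timm10 to Timm9 was −1.36 ± 0.21 and −0.81 ± 0.14. Each gives p = 0.1 in a two-sided exact permutation test, the smallest value that 3 against 3 allows, and 0.2 after Benjamini-Hochberg adjustment over the 8 pairs compared.

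In the TIM22 complex, 1 of 2 members rose. Timm29 (chr9:21592722-21595970), a subunit of the carrier translocase, was at 27.6, 42.8 and 32.7 CPM in XCON and 51.0, 62.4 and 54.7 CPM in XCKO (log2 0.70 ± 0.18 (SE), adjusted p = 0.047). It passed in 1 of the 6 fits that left out a library, the one without XCON 2, and its gene overlaps Yipf2. Timm22, the pore, had a log2 fold change of 0.63 that did not pass (adjusted p = 0.057), from 9.96, 9.52 and 7.63 CPM in XCON to 12.9, 13.1 and 15.9 CPM in XCKO. The groups did not overlap for either gene.

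The TIM23 channel had 2 of 5 members higher and 0 lower, with a median of 0.57. Timm23 (chr14:32180162-32201898), the channel subunit, was at 19.6, 21.5 and 24.5 CPM in XCON and 41.4, 37.4 and 40.2 CPM in XCKO, or 21.9 ± 2.46 and 39.6 ± 2.06 CPM as means (SD, n = 3 each), a 1.81-fold difference (log2 0.86 ± 0.14 (SE), adjusted p = 0.014). Timm17b (chrX:7899357-7908351), its partner in the membrane, was at 17.8, 15.2 and 16.0 CPM and 24.5, 25.7 and 28.1 CPM (log2 0.68 ± 0.14 (SE), adjusted p = 0.023). It did not pass without XCON 2, XCON 3 or XCKO 3. The other Timm17 gene, Timm17a, was at 13.4, 15.7 and 10.7 CPM and 15.2, 19.8 and 23.9 CPM, with XCKO 1 below XCON 2 (log2 0.57 ± 0.21 (SE), adjusted p = 0.11). The log2 ratio of Timm17a to Timm17b differed between groups by −0.12 (exact permutation p = 0.7). Timm50, which receives presequences on the intermembrane side, had 27.6, 31.8 and 23.6 CPM and 39.3, 37.9 and 45.0 CPM, not overlapping (log2 0.56, adjusted p = 0.055). Timm21, which links the channel to the TOM complex, had a log2 fold change of 0.25 (adjusted p = 0.24).

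Of the 6 members of the import motor, 1 rose and 0 fell. Dnajc19 (chr3:34056020-34081321), a J-domain protein at the channel, was at 25.8, 23.8 and 23.6 CPM in XCON and 35.0, 38.6 and 50.1 CPM in XCKO (log2 0.76 ± 0.16 (SE), adjusted p = 0.027). It did not pass without any one XCON library or without XCKO 3. Its gene overlaps Fxr1, and a pseudogene of it holds 353 reads over the 6 libraries. Hspa9, the matrix Hsp70 that drives import, had 216, 221 and 289 CPM in XCON and 313, 361 and 381 CPM in XCKO, groups that did not overlap, without passing (log2 0.54 ± 0.19 (SE), adjusted p = 0.095). Timm44, which anchors Hspa9 to the channel, was at 26.5, 27.2 and 30.4 CPM in XCON and 31.1, 35.0 and 32.1 CPM in XCKO, each XCKO library lying above each control, without passing (log2 0.22 ± 0.13 (SE), adjusted p = 0.29). Pam16, a regulator of the motor, had a log2 fold change of 0.54 (adjusted p = 0.13).

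The pair of nucleotide exchange factors for Hspa9 had estimates of opposite sign. Grpel1 was at 43.0, 35.6 and 53.6 CPM in XCON and 64.0, 67.6 and 76.6 CPM in XCKO, without overlap (log2 0.66 ± 0.18 (SE), adjusted p = 0.052), and passed when XCON 3 was left out. Grpel2 was at 56.7, 32.2 and 34.5 CPM and 40.2, 33.6 and 26.0 CPM, overlapping (log2 −0.31 ± 0.25 (SE), adjusted p = 0.45). Without XCON 1, its highest library, the Grpel2 estimate was 0.0011. The log2 ratio of Grpel1 to Grpel2 was 0.13 ± 0.52 in XCON and 1.08 ± 0.45 in XCKO (SD, n = 3 each), the difference of 0.95 giving an exact permutation p of 0.1, the smallest possible, and 0.2 when adjusted over the 8 pairs. XCON 3 at 0.64 and XCKO 1 at 0.67 almost meet in this ratio.

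**Figure D3:**
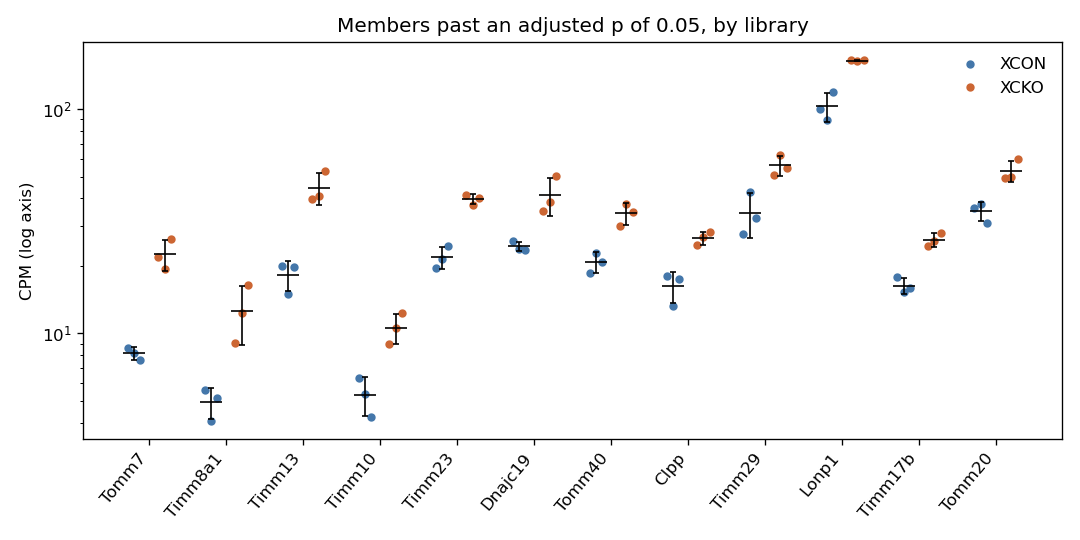
CPM on a log axis of the 12 members that rose, with a point for each library, blue for XCON and orange for XCKO, a dash for the group mean and bars for the SD. For each member the 3 XCKO points lie above the 3 XCON points, by the widest fold for Tomm7 (8.15 ± 0.508 against 22.6 ± 3.52 CPM).

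Neither subunit of the processing peptidase passed, although their groups did not overlap. Pmpcb, the catalytic subunit, was at 86.1, 78.6 and 86.3 CPM in XCON and 119.9, 115 and 123 CPM in XCKO (log2 0.51 ± 0.14 (SE), adjusted p = 0.052). Pmpca, the partner that binds the presequence, was at 35.4, 33.0 and 39.7 CPM and 48.1, 45.5 and 49.6 CPM (log2 0.41 ± 0.14 (SE), adjusted p = 0.088). The log2 ratio of Pmpca to Pmpcb was −1.22 ± 0.086 in XCON and −1.32 ± 0.014 in XCKO (SD, n = 3 each). This small difference of −0.11 also gives the smallest possible exact permutation p, 0.1, and 0.2 when adjusted over the 8 pairs.

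The matrix chaperonin did not pass in either gene. Hspd1, the barrel, was at 198, 232 and 314 CPM in XCON and 263, 322 and 333 CPM in XCKO, with XCON 3 above XCKO 1 (log2 0.31 ± 0.21 (SE), adjusted p = 0.36). Hspe1, its lid, was at 67.1, 70.2 and 88.3 CPM and 92.5, 104 and 131 CPM without overlap (log2 0.54 ± 0.19 (SE), adjusted p = 0.096). Their log2 ratio differed by −0.21 between the groups (exact permutation p = 0.2). The genes lie head to head, and Hspd1-ps3, a pseudogene of the first, holds 2493 reads, so some reads of Hspd1 may be counted there or the reverse.

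Of the 3 matrix protease genes, 2 rose and 0 fell. Lonp1 (chr17:56614297-56626887), the AAA+ protease of the matrix, was at 100, 89.2 and 119 CPM in XCON and 165, 164 and 165 CPM in XCKO, the XCKO libraries standing within 1 CPM of each other (log2 0.68 ± 0.16 (SE), adjusted p = 0.035). It passed in 1 of the 6 fits that left out a library, the one without XCON 3. Clpp (chr17:56990305-56996188), the peptidase ring of ClpXP, was at 18.0, 13.3 and 17.5 CPM and 24.7, 26.9 and 28.2 CPM (log2 0.71 ± 0.16 (SE), adjusted p = 0.03), and passed in none of those 6 fits, with an adjusted p of up to 0.088. Clpx, its unfoldase partner, did not pass. It was at 185, 66.4 and 283 CPM in XCON and 267, 77.1 and 76.7 CPM in XCKO (log2 −0.35 ± 0.68 (SE), adjusted p = 0.77). Each group held high and low libraries, and without XCON 3 the estimate was 0.16. The log2 ratio of Clpp to Clpx differed between groups by 1.10 (exact permutation p = 0.3).

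Clpx was high in XCON 1, XCON 3 and XCKO 1 and low in the other 3 libraries. Circadian clock genes, chosen after their values were seen, divided the libraries alike. The activator Arntl was at 17.5, 4.47 and 30.4 CPM in XCON and 14.5, 3.99 and 3.11 CPM in XCKO, and the output gene Dbp, which peaks at another phase, at 1.69, 57.8 and 1.05 CPM and 5.98, 68.2 and 46.3 CPM. The 3 libraries with the most Clpx had the most Arntl and the least Dbp. Collection times are not in the labels, and the part of the clock in the level of Clpx or of other members was not tested. Tomm40l, a relative of Tomm40, was also uneven within groups, at 3.92, 12.0 and 4.39 CPM and 4.65, 13.1 and 5.23 CPM (log2 0.18 ± 0.55 (SE), adjusted p = 0.86), and it was high in XCON 2 and XCKO 2. Its gene overlaps Nr1i3, which was at 12.8, 20.9 and 10.6 CPM and 19.4, 43.5 and 21.6 CPM. The log2 ratio of Tomm40 to Tomm40l differed between groups by 0.51 (exact permutation p = 0.5).

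**Figure D4:**
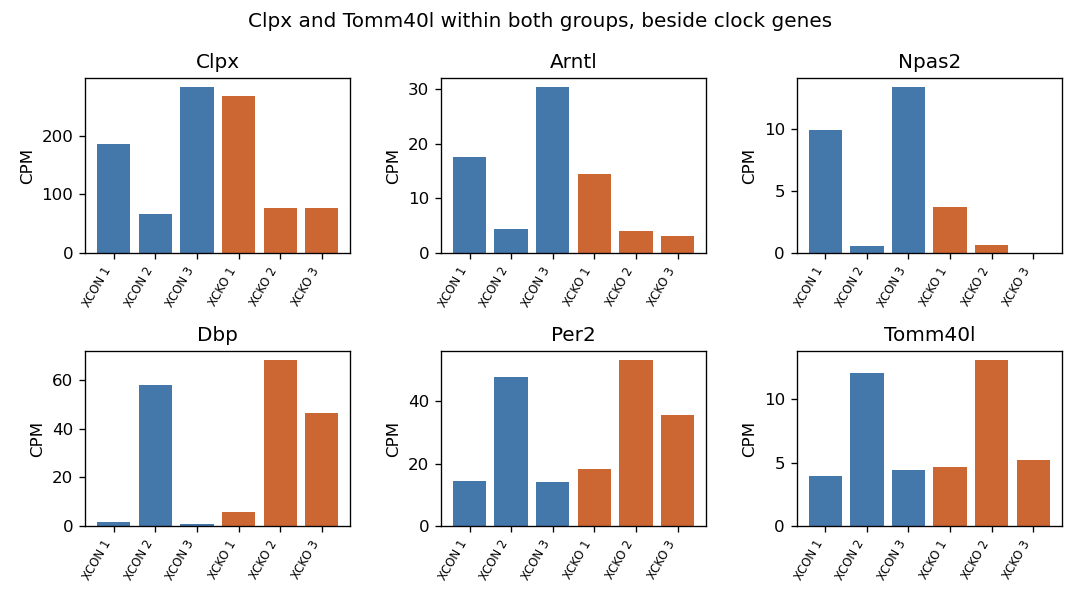
CPM of Clpx and Tomm40l beside 4 clock genes in each library, blue for XCON and orange for XCKO, each panel with its own axis from 0. Clpx is high in the 3 libraries with high Arntl and Npas2, and Tomm40l is high in XCON 2 and XCKO 2.

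A pair of members named Tomm lie outside the translocases. Tomm34, a cytosolic cochaperone, was at 20.6, 16.7 and 14.6 CPM in XCON and 12.5, 11.4 and 10.8 CPM in XCKO, the single member whose XCKO libraries all lay below the controls (log2 −0.58 ± 0.17 (SE), adjusted p = 0.062). Its gene overlaps Stk4. Tomm6os was under 1 CPM in each library (log2 −0.46 ± 0.60 (SE), adjusted p = 0.64).

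Levels of different members were compared per length, as FPKM, which divides the read count by gene length and library size. In XCON the order was led by Hspd1 at 91.6 ± 23.6, Hspa9 at 60.1 ± 11.3, Clpx at 50.1 ± 31.2 and Hspe1 at 49.8 ± 8.50 FPKM (SD, n = 3). Neighbours among these 4 differ by less than the sum of their SDs. Timm10b at 0.707 ± 0.215 and Tomm40l at 1.28 ± 0.842 FPKM were the lowest of the tested coding members. In XCKO, Hspd1 at 116 ± 14.7, Hspa9 at 89.5 ± 9.52 and Hspe1 at 74.2 ± 14.6 FPKM led. Tomm7 moved from rank 21 to rank 11 of the 38 members, from 7.06 ± 0.364 to 20.1 ± 3.50 FPKM. Lonp1 was at 22.9 ± 3.79 FPKM in XCON and 37.6 ± 0.744 FPKM in XCKO.

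Many of the members that rose are short genes, and fold changes in these libraries varied with gene length. Over all tested genes the median log2 fold change was 0.21 in the shortest decile and −0.25 in the longest. Of the 5 members in the shortest decile 3 rose, where 10.9% of all tested genes in that decile did. Of the 6 in the next decile 3 rose, where 10.6% of its genes did. Set against the median of genes of like length, 31 of the 35 members lay above it, with a median excess of 0.52. When length was fitted as an offset in each library, 19 members were higher, the 12 among them, and 0 lower. Of all tested genes, 8.48% were then higher, against 5.21% without the offset, and their median moved by 0.14. Spearman's rho between length and log2 fold change was −0.36 over the 35 members and −0.22 over all tested genes, each across genes of the same libraries.

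**Figure D5:**
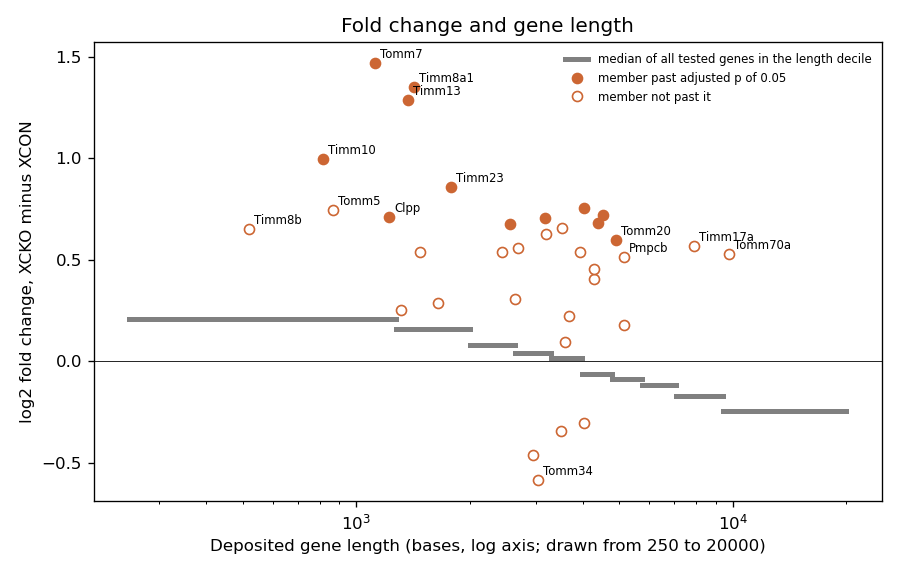
Log2 fold change (XCKO minus XCON) against gene length in bases on a log axis for the tested members, with the median of all tested genes in each decile of length. Of the 35 members, 31 lie above the median of their decile, which falls from 0.21 to −0.25.

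Other genes of the pathway, which the rule leaves out, were taken from lists of import and quality control genes. Of 17 other import genes tested, 5 rose and 0 fell, with a median of 0.44. Romo1, a small inner membrane protein, went from 12.6 ± 1.79 to 28.5 ± 3.88 CPM (log2 1.18 ± 0.16 (SE), adjusted p = 0.0096), and Immp2l, an inner membrane peptidase, from 12.4 ± 0.885 to 29.9 ± 6.86 CPM (log2 1.27 ± 0.19 (SE), adjusted p = 0.011). Timmdc1, an assembly factor of complex I with homology to Timm17 and Timm23, had a log2 fold change of 0.81 (adjusted p = 0.017), Mtch1, an outer membrane protein related to the insertase Mtch2, 0.72 (adjusted p = 0.025) and Chchd4, which oxidises small TIM proteins, 0.76 (adjusted p = 0.039). Of 11 other quality control genes, 2 rose and 0 fell: the prohibitins Phb2 (log2 0.79 ± 0.14 (SE), adjusted p = 0.017) and Phb (log2 0.63 ± 0.15 (SE), adjusted p = 0.036). Leaving out 1 library gave 2 to 5 of these 28 genes higher, against 7 with all 6 libraries, the lowest without XCKO 3.

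Regulators and cytosolic chaperones had medians nearer 0. Among 14 genes for regulators of mitochondrial stress and biogenesis the median was 0.06, and 1 rose, Esrra, the receptor ERRα, from 19.6 ± 5.46 to 43.6 ± 7.93 CPM (log2 1.15 ± 0.22 (SE), adjusted p = 0.021). Esrra did not pass without XCON 1 (adjusted p = 0.061), XCON 3 (0.065) or XCKO 3 (0.066). At an unadjusted p under 0.05, 5 of the 14 were higher and 0 lower, and the share of all tested genes at that level was not counted. DESeq2 called 2 higher and 0 lower, where it called 9.51% of all tested genes higher. Each XCKO library lay above each control for 6 of the 14 (Atf5, Esrra, Tfam, Tfb2m, Polg and Twnk), against 17.6% of all tested genes. Atf5, a factor of the mitochondrial stress response, did not pass (log2 0.72 ± 0.23 (SE), adjusted p = 0.079), and Ddit3 (CHOP) had a log2 fold change of −0.35. The 17 cytosolic chaperones had 0 higher and 0 lower in edgeR, at an unadjusted p under 0.05 as well, and in DESeq2 and limma-voom, with a median of 0.15 and the smallest adjusted p for Tcp1 (log2 −0.34, adjusted p = 0.25). None of these 17 had groups that did not overlap, where XCKO lay wholly above XCON for 17.6% of all tested genes and wholly below for 18.1%.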

How the data were processed

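RNA-seq of 6 hepatocyte libraries (3 XCON, 3 XCKO) was read from a table of the whole series. It holds the authors' counts of reads per gene as deposited, FPKM per library, a group mean signal for each genotype, a log2 fold change and a p-value with its adjusted value, per the file headers. Per the submitters' processing notes, the tool named is Bowtie 0.12.2, and mm10 and mm8 are listed as builds without a role for either. The sources used here do not give whether reads were counted by strand, and 26 of 38 members overlap another gene. Coordinates are those of the table, of which 36 of 38 match GENCODE for GRCm38.

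Counts were tested with edgeR 4.0.16 in R 4.3.3 (TMM scaling, filterByExpr, robust quasi-likelihood F test, XCKO against XCON, no covariate), with Benjamini-Hochberg adjustment over 14873 genes and a threshold of 0.05. The biological coefficient of variation was 25.8%. The procedure was tested on simulated data. CPM uses TMM library sizes, and standard errors are the log2 fold change over the square root of F. Ratios of member pairs used the count plus 0.5 and exact permutation over libraries. The authors' p-values and log2 values were used to count their calls. Alternatives were DESeq2 1.42.0, limma-voom 3.58.1, other scalings and filters, the replicate block, a length offset and leaving out each library. Members with per-library values are those that passed and the main components of each complex. From other lists come up to 4 genes with the smallest p among those that passed. Chchd4, Timm22, Timm8b, Timm9, Timm10b, Clpx, Tomm40l, Tomm34 and Grpel2, and the regulators Atf5, Ddit3, Tfam, Tfb2m, Polg and Twnk, were added after their values were seen. Members and lists were chosen with earlier results of these data known.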

Additional observations from a re-analysis of the deposited data

How the results depend on the processing

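Against 12 members higher and 0 lower, size factors gave 13, limma-voom 14 and no filter 18, while DESeq2 gave 20, the length offset 19 and library totals 5 higher and 1 lower. A filter of 5 CPM in 3 libraries gave 11 higher and 1 lower (Tomm34), and leaving out the mitochondrially encoded genes 12. Over all tested genes, 775 rose and 603 fell in the chosen fit. These counts were 327 and 2028 with library totals, 1185 and 975 with no filter, 1415 and 1238 with DESeq2, and 1261 and 450 with the length offset. Of the other import and quality control genes, 7 rose, against 4, 11, 13 and 12 under the same 4 settings. Leaving out 1 library gave 3 to 9 members, 178 to 523 genes higher, 131 to 287 lower and 2 to 5 of the other genes. With the replicate number as a block, 3 members (Timm13, Timm23, Tomm7), 220 genes higher, 102 lower and 2 of the other genes passed. Same-numbered libraries correlated at 0.06, 0.08 and −0.17 in their deviations, and differently numbered ones at −0.16 to 0.11. With 3 libraries in each group these values cannot decide whether the numbers mark pairs. The chosen fit had no block by plan. Signs turned with library totals for Timm21 (−0.0078), Tomm40l (−0.052), Timm44 (−0.038) and Timm10b (−0.15). Leaving out 1 library, they ranged for Tomm40l from −0.40 (without XCKO 2) to 0.89 (without XCON 2), and were −0.094 without XCON 1 and −0.053 without XCON 3. The range was −0.45 to 0.0011 for Grpel2 (positive without XCON 1), −1.20 to 0.16 for Clpx (positive without XCON 3) and −0.12 to 0.32 for Timm10b (negative without XCON 3). The log2 ratio of Timm17a to Timm17b ranged from −0.25 to 0.061 (positive without XCON 2 or XCKO 1). None of these passed the test in the chosen fit, and the cause was not tested. Fewer libraries leave fewer degrees of freedom in the fits that leave one out. The filter on low counts left out Tomm6, Tomm20l and Timm8a2, and without it all 38 members were tested.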

Other observations

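More clock genes divided the libraries as Clpx did. Npas2, an activator, was at 9.96, 0.586 and 13.4 CPM in XCON 1, 2 and 3 and 3.72, 0.620 and 0.0432 CPM in XCKO 1, 2 and 3. Tef, an output gene, was at 33.3, 151 and 30.2 CPM and 72.9, 217 and 151 CPM, Per2, a repressor, at 14.6, 47.9 and 14.2 CPM and 18.2, 53.3 and 35.5 CPM, and Ciart, another repressor, at 0.115, 9.89 and 0.507 CPM and 2.51, 10.7 and 8.08 CPM. These genes were chosen after their values were seen. XCON 2, XCKO 2 and XCKO 3 had the highest levels of Tef, Per2 and Ciart and the lowest of Npas2, so a single control library but a pair of XCKO libraries lay on that side.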
